A study of Rattus norvegicus with 9 samples.

Results

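The genes described here fold, check and degrade proteins of the endoplasmic reticulum (ER), or sense and answer a load of unfolded protein in it. They were taken by name, 37 symbols, of which 36 had a row in a table of 32792 genes and Hsp90ab1-ps had none. Of the 36, 33 passed the filter on low values (at least 1 FPKM in at least 3 of 9 libraries), among 8532 genes tested. FPKM counts the fragments of a gene per kilobase of its length, relative to all fragments assigned to genes in the library. The 3 that did not pass were Atf6, Dnajc3 and Derl3.

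The cells were cultured vascular smooth muscle cells from rat thoracic aorta, in 3 groups of 3 RNA-seq libraries, all of them transfected. CTSD-AGEs cells overexpressed CTSD, the lysosomal protease cathepsin D, and were given advanced glycation end products (AGEs), proteins modified by sugar. Vector-AGEs cells carried the empty vector and were given AGEs, and vector-BSA cells carried it with bovine serum albumin (BSA) in their place. AGEs were given at 200 µg/mL for 24 h, and no library with CTSD and BSA was analysed, so CTSD was compared with the vector under AGEs only. The labels do not give the promoter that drives CTSD, the share of cells transfected or the BSA dose.

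The libraries held 4492416 to 5341647 fragments assigned to genes. Ctsd (cathepsin D, ENSRNOG00000020206, chromosome 1, 215541542 to 215553451 as deposited) had 195, 199.7 and 203 FPKM in CTSD-AGEs cells, 13.2, 14.8 and 13.7 in vector-AGEs cells and 11.7, 14.6 and 12.9 in vector-BSA cells, as the labels say. Smooth muscle markers summed to 212.5 to 217 FPKM in CTSD-AGEs, 138 to 139 in vector-AGEs and 157 to 175 in vector-BSA libraries. The sums differed by group, but single markers did not all do so, and their part in the results below was not tested. Acta2 averaged 22.8, 8.25 and 8.45 FPKM in CTSD-AGEs, vector-AGEs and vector-BSA cells. In the same order, Tagln averaged 22.3, 11.3 and 12.1 FPKM and Smtn 19.98, 18.8 and 18.8. Of those 10 markers, 5 passed the filter, and those beside Acta2, Tagln and Smtn are not given singly. The named markers had close means in vector-AGEs and vector-BSA cells, so the lower vector-AGEs sum came mostly from the others. Myh11 and Cnn1 had at most 0.177 and 1.34 FPKM in any library, and Myocd was listed at 0. Marker lists of Schwann or neural, endothelial, and epithelial or mesothelial cells summed to at most 0.682, 0.136 and 0.237 FPKM in any library, with Cdh5, Kdr, Epcam and Sox10 at 0. Macrophage markers summed to 0.924 to 1.76 FPKM in CTSD-AGEs, 0.143 to 0.971 in vector-AGEs and 0.152 to 1.61 in vector-BSA libraries, with Ptprc, Adgre1 and Cd14 at 0. Fibroblast markers summed to 2.18 to 2.57 FPKM in CTSD-AGEs, 1.84 to 2.21 in vector-AGEs and 1.99 to 2.26 in vector-BSA libraries, with Lum at 0. Vector-AGEs replicate 3 correlated nearly as well with vector-BSA libraries (mean r = 0.9856 over genes) as with its own group (0.9864), while replicates 1 and 2 had means of 0.9878 and 0.9873 with their own group and 0.9838 and 0.9826 with vector-BSA. Without replicate 3, 16 members were called lower and 1 higher with AGEs, and 12 higher and 1 lower with CTSD, against 16, 1, 13 and 1 with it. Over all tested genes, calls with AGEs then numbered 1607 (33.2% of them higher), against 1277 (40.4%) with it. Calls with CTSD numbered 2306 (60.5% higher), against 2617 (60.8%).

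Secreted and membrane proteins enter the ER unfolded. There BiP (Hspa5) and GRP94 (Hsp90b1) bind them, calnexin and calreticulin hold those that carry glycans, and disulfide isomerases join their cysteines. Proteins that fail are pulled back to the cytosol and degraded. When unfolded protein accumulates, the sensors IRE1 (Ern1), PERK (Eif2ak3) and ATF6 start the unfolded protein response: IRE1 splices Xbp1 mRNA, ATF6 is cut to a transcription factor, and PERK slows translation and favours that of Atf4. In smooth muscle the same machinery serves collagen and other matrix proteins, which are made through the ER.

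The chaperone genes Hspa5 and Hsp90b1 and the lectin gene Calr stood lowest in vector-AGEs cells, and the transcription factor gene Xbp1 stood highest in CTSD-AGEs cells. In vector-AGEs against vector-BSA cells, 16 of 33 tested members fell and 1 rose, where 8.92% of all tested genes were called lower and 6.05% higher. The median log2 difference of the members was -0.26, against -0.06 over all genes. Of the members 28 of 33 lay below 0, and of all tested genes 5053 of 8532. In CTSD-AGEs against vector-AGEs cells, 13 of 33 rose and 1 fell, where 18.6% of all genes were called higher and 12.0% lower, and the members' median was 0.19, against 0.05. The 2 comparisons share the vector-AGEs libraries, so a low value there lowers the first difference and raises the other. Of all genes called, 40.4% were higher with AGEs and 60.8% with CTSD, and under median-of-ratios scaling 58.9% and 49.0%. The members then counted 1 higher and 13 lower with AGEs, and 10 higher and 2 lower with CTSD. With that scaling, 1272 of 8532 genes were called with AGEs and 2502 with CTSD, against 1277 and 2617 without it. The shares of all genes called in each direction, given above, are those without this scaling. In CTSD-AGEs against vector-BSA cells, 7 members were lower and 1 was higher, or 21.2% and 3.03%. The share called lower lay near the 16.3% of all genes called lower, and 16.3% of all genes were called higher. In bulk RNA, fewer cells of a type and less RNA per cell cannot be told apart.

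Together the 36 genes took 1.64%, 1.63% and 1.63% of assigned fragments in CTSD-AGEs libraries, 1.42%, 1.40% and 1.46% in vector-AGEs libraries, and 1.78%, 1.82% and 1.74% in vector-BSA libraries. The 3 groups did not overlap, and CTSD-AGEs libraries lay between the other groups. Well expressed genes are called more often, so the members with a mean of at least 50 FPKM were also set beside all genes at that level, a limit chosen after the values were seen. Of 18 such members, 12 fell with AGEs (66.7%), against 12.2% of 2010 genes, and 11 rose with CTSD (61.1%), against 31.2%. Without vector-BSA replicate 2, 10 members were called lower with AGEs instead of 16. Calls over all tested genes then numbered 850 instead of 1277, with 42.2% and 40.4% of them higher.

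**Figure D1:**
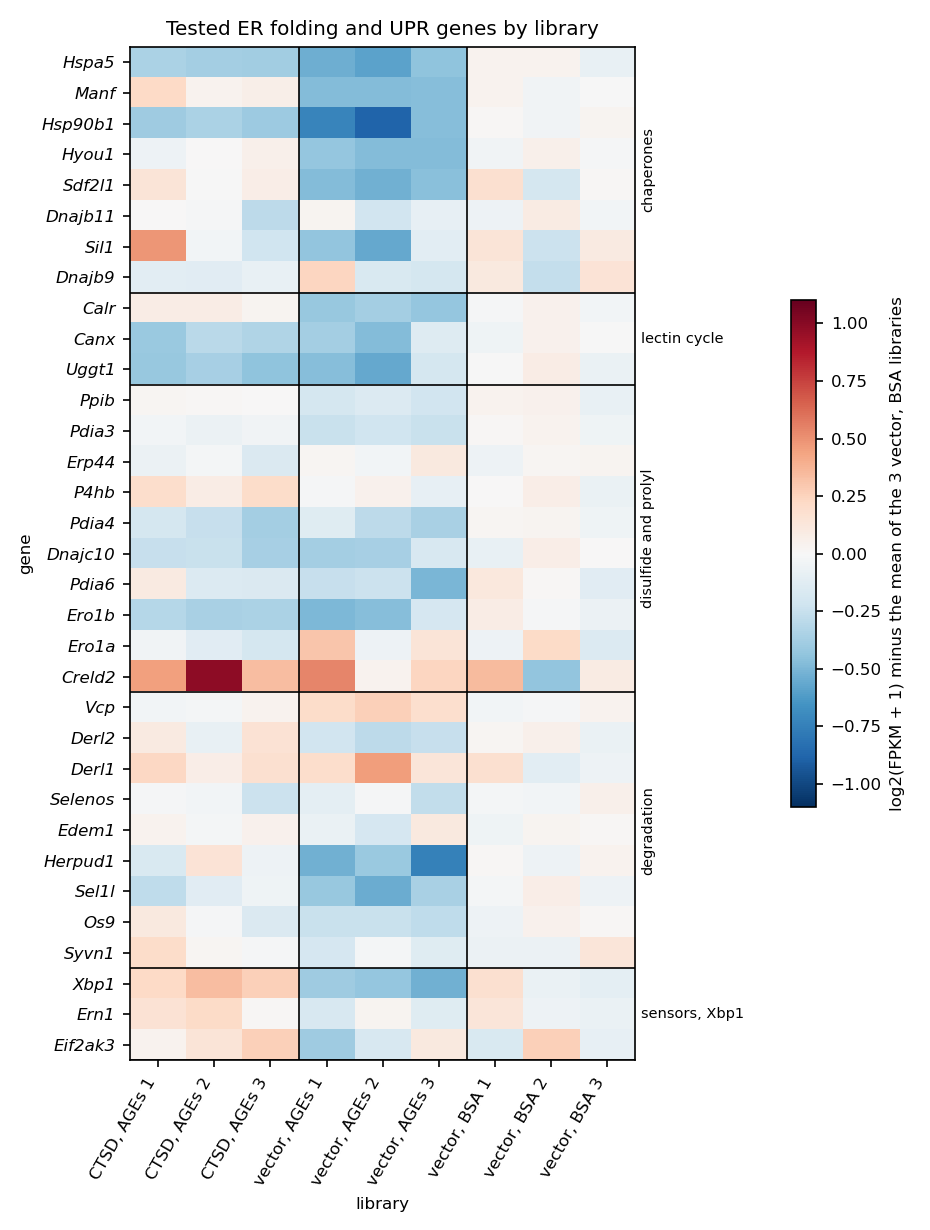
Heat map of the 33 tested members by library, in log2(FPKM + 1) minus the mean of the 3 vector-BSA libraries, with genes in rows by role and libraries in columns. Blue fills most of the vector-AGEs columns in the chaperone and lectin rows, while the 7 members called lower in CTSD-AGEs than in vector-BSA cells (Hspa5, Hsp90b1, Canx, Uggt1, Ero1b, Dnajc10 and Pdia4) are also blue in the CTSD-AGEs columns.

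Of the 8 chaperones and chaperone cofactors tested, 5 fell with AGEs (median -0.47) and 5 rose with CTSD (median 0.38). Over all tested genes, 8.92% were called lower with AGEs and 18.6% higher with CTSD. The chaperones called in either comparison were Hspa5, Hsp90b1, Hyou1, Manf and Sdf2l1. Hspa5 (ENSRNOG00000018294, chromosome 3, 13838304 to 13842762 as deposited), the ER's main HSP70 and the protein that keeps the sensors inactive, had 1429.9, 1401 and 1395 FPKM in CTSD-AGEs cells, 1257, 1209 and 1343 in vector-AGEs cells and 1869, 1874 and 1723 in vector-BSA cells. The groups did not overlap, with vector-BSA cells highest and vector-AGEs cells lowest. Its log2 difference, on the log2(FPKM + 1) scale used throughout, was -0.52 (SE 0.05, adjusted p = 0.000172) with AGEs and 0.15 (SE 0.05, adjusted p = 0.0334) with CTSD. CTSD-AGEs cells stayed below vector-BSA cells (-0.37, adjusted p = 0.000366, 0.77 times their mean FPKM). The smaller CTSD difference lost its call without any 1 of CTSD-AGEs replicates 1, 2 and 3 and vector-AGEs replicates 1 and 2 (adjusted p = 0.0709 to 0.103), and under median-of-ratios scaling (0.152) and quantile normalization (0.0893).

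Hsp90b1 (ENSRNOG00000026963, chromosome 7, 27226569 to 27240533), the HSP90 of the ER, had 248, 255 and 245 FPKM in CTSD-AGEs cells, 195, 175 and 233 in vector-AGEs cells and 326, 316 and 330.1 in vector-BSA cells. It showed the largest fall with AGEs among the members, -0.70 (SE 0.08, adjusted p = 0.000709), to 0.62 of the vector-BSA mean. The groups did not overlap, and vector-AGEs replicate 3 stood nearest to the others. With CTSD the level rose by 0.32 (SE 0.08, adjusted p = 0.0151) and remained below vector-BSA cells (-0.38, adjusted p = 0.00674). Without vector-AGEs replicate 3 the differences were -0.81 with AGEs and 0.43 with CTSD. Exact permutation tests (both sides) of 3 against 3 libraries gave p = 0.1 for Hspa5, Hsp90b1 and Xbp1 in each of the 3 comparisons, the smallest value that design allows.

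Hyou1, an HSP110-type exchange factor of BiP, had 250.3, 260.4 and 270.2 FPKM in CTSD-AGEs cells, 194, 186 and 187 in vector-AGEs cells and 253, 269.6 and 257 in vector-BSA cells. All 3 vector-AGEs libraries lay below the other 6, which overlapped. The difference was -0.46 (SE 0.04, adjusted p = 0.000242) with AGEs and 0.46 (SE 0.04, adjusted p = 5.15e-05) with CTSD, and CTSD-AGEs cells differed from vector-BSA cells by 0.00 (95% interval -0.10 to 0.10).

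Manf, a small ER protein that binds BiP and is secreted under stress, had 585, 516 and 525 FPKM in CTSD-AGEs cells, 359, 359.8 and 362 in vector-AGEs cells and 514, 489 and 499.8 in vector-BSA cells. The vector-AGEs libraries were lowest and close together, and CTSD-AGEs cells were 1.50 times as high as they were (0.59, SE 0.05, adjusted p = 2.41e-05). Against vector-BSA cells the vector-AGEs difference was -0.47 (SE 0.05, adjusted p = 0.000295). Sdf2l1, which keeps substrates of BiP from aggregating, had 112, 101 and 106 FPKM in CTSD-AGEs cells, 72.5, 69.9 and 73.2 in vector-AGEs cells and 115, 88.5 and 102 in vector-BSA cells. Its vector-AGEs libraries lay below the other 6 as well, with differences of -0.49 (SE 0.08, adjusted p = 0.00412) with AGEs and 0.56 (SE 0.08, adjusted p = 0.000690) with CTSD.

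No call was made for the other chaperones, all J-domain cofactors of BiP or its exchange factor. Dnajb9, induced by IRE1 signalling, had 2.94, 2.92 and 3.04 FPKM in CTSD-AGEs cells, 4.04, 2.81 and 2.74 in vector-AGEs cells and 3.60, 2.57 and 3.75 in vector-BSA cells. Dnajc3, also known as p58IPK, had 0.355, 0 and 0.203 FPKM in CTSD-AGEs cells, 0.197, 0 and 0.521 in vector-AGEs cells and 0, 0.191 and 0.413 in vector-BSA cells, from 10 fragments in all 9 libraries. Their groups overlapped throughout. Dnajc3 lies on another row's locus that holds 2092 fragments, and the labels do not state a strand, so its value is uncertain. Sil1 differed by -0.37 (adjusted p = 0.231) with AGEs and 0.45 (adjusted p = 0.107) with CTSD, and Dnajb11 ranged from 50.3 to 65.7 FPKM over all libraries.

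**Figure D2:**
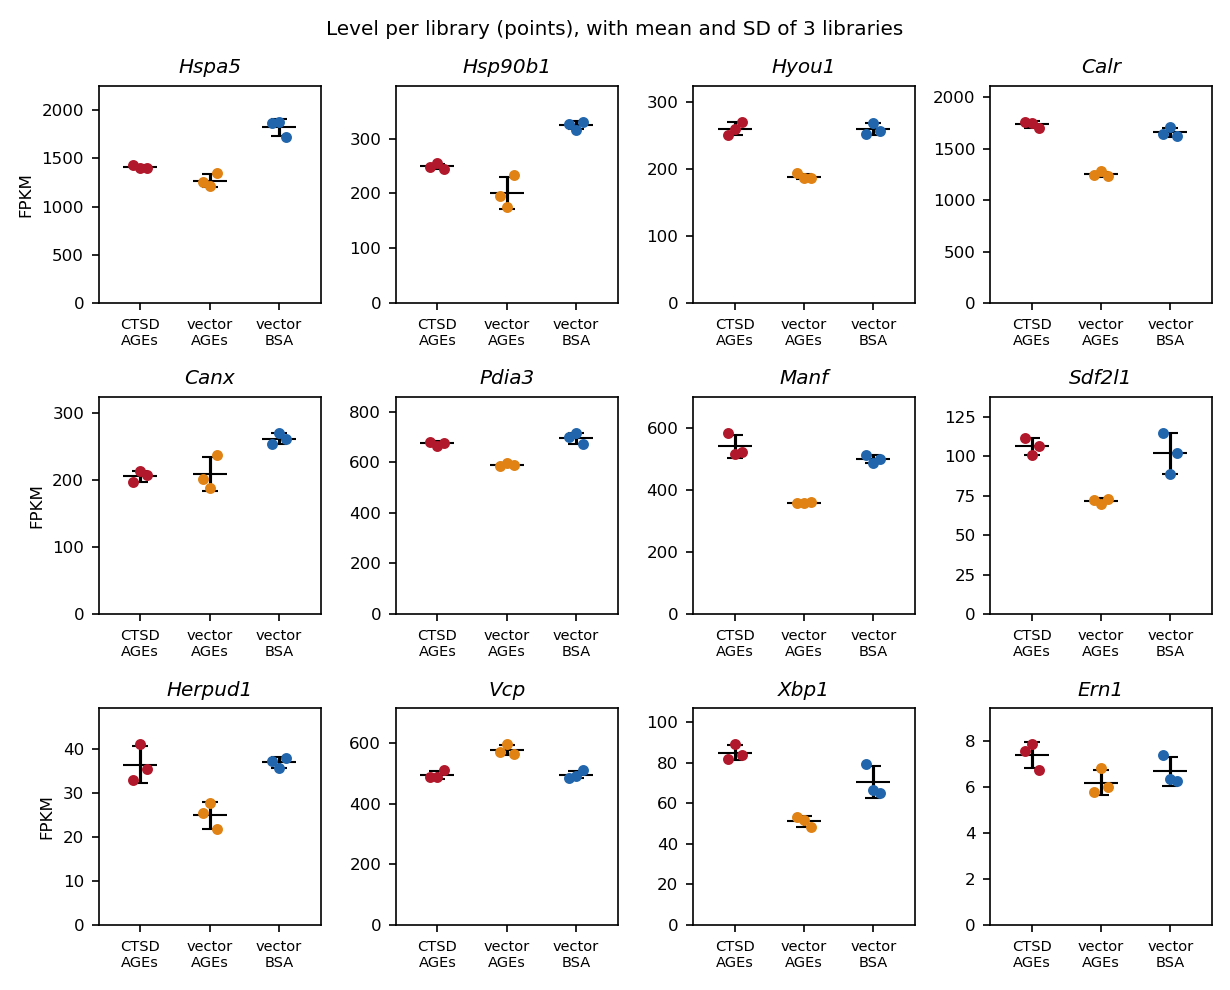
Level of 12 members in each library, in FPKM on linear axes from 0, with points for libraries and black bars for the mean and SD of 3 libraries in CTSD-AGEs, vector-AGEs and vector-BSA cells. Vector-AGEs cells are lowest for Hspa5, Hsp90b1, Hyou1, Calr, Pdia3, Manf, Sdf2l1, Herpud1 and Xbp1, while Vcp is highest there and Canx is low in both groups with AGEs.

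The promoters of the leading chaperones are shown because they carry the elements through which ATF6 and XBP1 are known to act. The ER stress element (ERSE) is CCAAT, then 9 bases of any kind, then CCACG, in which the factor NF-Y binds the first part and ATF6 or XBP1 the last. ERSE-II is ATTGG, 1 base of any kind, then CCACG. Windows of 300 bases, 250 before and 50 after the RefSeq start site in the rat build GRCr8, were matched for 28 of 36 members, and both strands were searched for exact matches. Manf, Derl1, Pdia3, Ern1, Os9, Pdia6, Atf6 and Ero1a were not matched. Capitals mark the 2 fixed parts in the ERSE copies of the members below, each read on the strand that carries the element.
Hspa5: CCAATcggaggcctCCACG
Hsp90b1, upstream copy: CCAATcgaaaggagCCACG
Hsp90b1, downstream copy: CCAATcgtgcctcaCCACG
Calr: CCAATcagggtcgaCCACG
Canx: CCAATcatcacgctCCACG
Xbp1: CCAATcgcagacggCCACG
Ero1b: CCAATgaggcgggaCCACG
Creld2: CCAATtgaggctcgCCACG
Dnajc3: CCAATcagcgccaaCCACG
Derl3: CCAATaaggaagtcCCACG

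ERSE stood in 9 of the 28 members with a window (32.1%), which held 10 copies, and in 0.0657% of all 33469 windows of that length. Counted by gene it stood in 21 of 27457, the 9 members included. ERSE-II stood in 3 members, Hyou1 with 2 copies and Herpud1 and Dnajb11 with 1 copy each. It stood in 0.0508% of all windows, or 17 of 27457 genes with these 3 included. The members were listed as genes of the response in which these elements are known to act. Shares above those of all windows were therefore likely beforehand, and they describe the promoters without testing anything. The Hspa5 element lay at -43 to -25 from the start, those of Hsp90b1 at -176 to -158 and -72 to -54, and that of Xbp1 at -65 to -47. The ERSE-II copies follow with the fixed parts in capitals.
Hyou1, upstream copy: ATTGGcCCACG
Hyou1, downstream copy: ATTGGgCCACG
Herpud1: ATTGGgCCACG
Dnajb11: ATTGGcCCACG

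The UPRE, TGACGTGG, an element bound by XBP1, stood in Dnajc10, Hyou1 and Vcp and in 0.595% of all windows. In Hyou1 it shared 5 bases with the upstream ERSE-II. The ATF4 and CHOP core TGATGNAA stood in Herpud1 alone, and in 3.98% of all windows. With only the 250 bases before the start searched, the counts were 9, 2, 3 and 1 members, Dnajb11 being lost. Whole windows follow for the 3 chaperones, on the strand of the gene with matches to any of the 4 elements in capitals, an element on the other strand appearing as its reverse complement. Hyou1 has a second RefSeq start site, whose window (chr8:53602822-53603121) holds none of the 4 elements and is not printed.
Hspa5, chr3:38452766-38453065, plus strand: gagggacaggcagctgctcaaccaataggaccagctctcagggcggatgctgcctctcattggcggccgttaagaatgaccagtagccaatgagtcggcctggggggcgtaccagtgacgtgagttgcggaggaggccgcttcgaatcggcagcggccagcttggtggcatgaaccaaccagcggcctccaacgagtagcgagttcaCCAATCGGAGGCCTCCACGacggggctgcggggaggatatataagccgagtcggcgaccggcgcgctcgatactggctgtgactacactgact
Hsp90b1, chr7:23012244-23012543, minus strand: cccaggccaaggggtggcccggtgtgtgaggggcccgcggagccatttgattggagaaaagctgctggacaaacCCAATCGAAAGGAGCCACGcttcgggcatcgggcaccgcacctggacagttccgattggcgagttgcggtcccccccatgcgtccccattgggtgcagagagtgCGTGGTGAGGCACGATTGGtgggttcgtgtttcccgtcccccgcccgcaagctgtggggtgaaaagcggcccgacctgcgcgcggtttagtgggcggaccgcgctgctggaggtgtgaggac
Hyou1, chr8:53602632-53602931, plus strand: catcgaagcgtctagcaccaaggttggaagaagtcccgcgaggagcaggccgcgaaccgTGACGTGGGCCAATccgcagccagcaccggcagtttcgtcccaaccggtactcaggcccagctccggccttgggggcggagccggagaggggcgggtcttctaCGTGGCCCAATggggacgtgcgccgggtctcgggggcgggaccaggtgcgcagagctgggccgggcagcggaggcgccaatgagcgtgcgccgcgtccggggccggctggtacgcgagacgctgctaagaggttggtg

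Of 10 tested members with ERSE or ERSE-II, 8 fell with AGEs (median -0.43) and 6 rose with CTSD (median 0.32). Of all tested genes, 8.92% were called lower and 6.05% higher with AGEs, and 18.6% higher and 12.0% lower with CTSD. Of 16 tested members whose windows hold neither, 6 fell and 1 rose with AGEs (median -0.17), and 5 rose and 1 fell with CTSD (median 0.12). Either element stood in 11 other tested genes, of which 2 fell and 0 rose with AGEs, and 2 rose and 2 fell with CTSD. Members without a window, such as Manf and Pdia3, are in neither member set. The sets were not matched for level, and the members with an element include the highly expressed Hspa5, Calr and Hsp90b1. A match is a run of letters and does not show that a factor bound there.

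**Figure D3:**
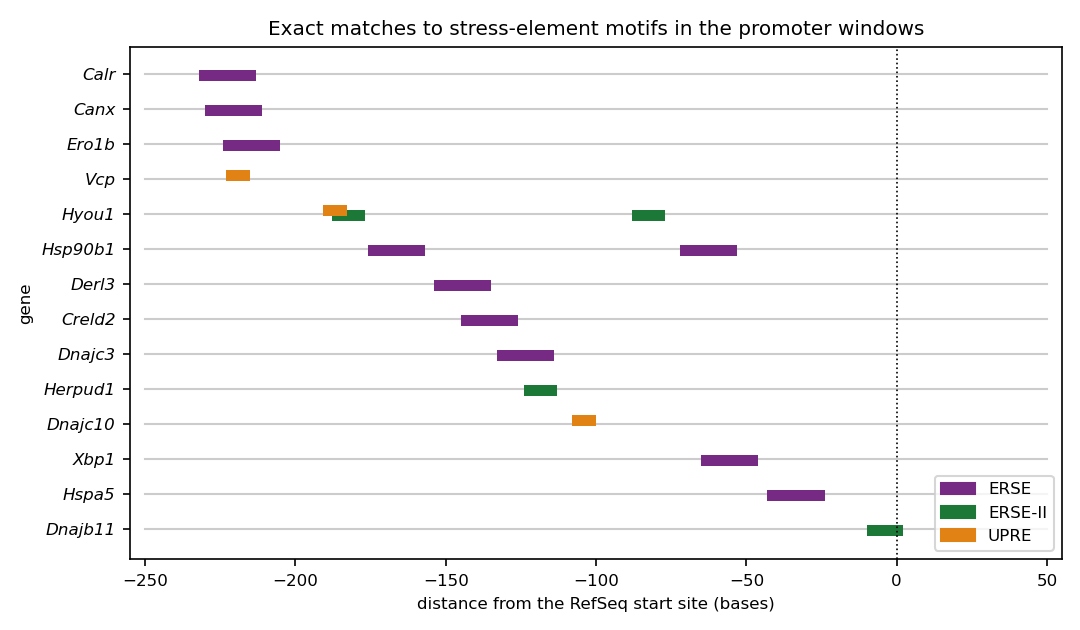
Positions of exact matches to ERSE, ERSE-II and UPRE in the promoter windows of 14 members, in bases from the RefSeq start site (dotted line at 0), with coloured bars drawn to length. Copies lie between position -232 (Calr) and the start itself (Dnajb11), and the bars of Hyou1 overlap where UPRE and ERSE-II share bases.

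Of the 3 genes of the lectin cycle, 2 fell with AGEs and 1 rose with CTSD. Among all tested genes 8.92% fell with AGEs and 18.6% rose with CTSD, and 3 genes are few to set beside these shares. Calr (ENSRNOG00000003029, chromosome 19, 25956771 to 25961666), calreticulin, the soluble lectin that holds glycoproteins, had 1756, 1753 and 1695 FPKM in CTSD-AGEs cells, 1243, 1278 and 1234 in vector-AGEs cells and 1641, 1709.9 and 1619 in vector-BSA cells. Per length, it had the highest mean FPKM of the members in CTSD-AGEs cells, and Hspa5 had it in the other groups. All 3 vector-AGEs libraries lay below the other 6. The differences were -0.40 (SE 0.04, adjusted p = 0.000138) with AGEs and 0.47 (SE 0.04, adjusted p = 1.35e-05) with CTSD, and CTSD-AGEs cells differed from vector-BSA cells by 0.07 (95% interval -0.01 to 0.14).

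Canx, calnexin, the membrane-bound lectin of the same cycle, had 197, 213 and 208 FPKM in CTSD-AGEs cells, 202, 188 and 237 in vector-AGEs cells and 254, 270.2 and 262 in vector-BSA cells. Both groups with AGEs lay below the vector-BSA libraries and overlapped each other. It fell by 0.33 with AGEs (SE 0.07, adjusted p = 0.0150), the difference with CTSD was -0.02 (95% interval -0.18 to 0.15), and CTSD-AGEs cells remained lower than vector-BSA cells (-0.35, adjusted p = 0.00581). The call with AGEs ended without vector-AGEs replicate 1 (adjusted p = 0.0563) or vector-BSA replicate 2 (0.0548). Uggt1, which adds glucose back to misfolded glycoproteins so that the lectins bind them again, had means of 5.28 ± 0.185 FPKM in CTSD-AGEs, 5.30 ± 0.857 in vector-AGEs and 7.33 ± 0.441 in vector-BSA cells (SD, n = 3 each). It was lower in CTSD-AGEs than in vector-BSA cells (-0.41, adjusted p = 0.0333), a call that ended without any 1 of those 6 libraries (adjusted p = 0.0549 to 0.0964), and the difference with AGEs was -0.41 (adjusted p = 0.0551).

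Of the 10 disulfide and prolyl enzymes tested, 5 fell with AGEs (median -0.21) and 3 rose with CTSD (median 0.11). The shares over all tested genes were 8.92% lower with AGEs and 18.6% higher with CTSD. Pdia3, the isomerase that works with calnexin and calreticulin, had 681, 666 and 677 FPKM in CTSD-AGEs cells, 586, 597 and 587 in vector-AGEs cells and 699, 714 and 670.1 in vector-BSA cells. Its vector-AGEs libraries lay below the other 6 by a small, even step, with differences of -0.23 (SE 0.04, adjusted p = 0.00232) with AGEs and 0.19 (SE 0.04, adjusted p = 0.00219) with CTSD. Pdia3 overlaps Ppip5k1, U6 and SNORA73, whose rows together hold 4125 fragments against 54612 for Pdia3, and the labels do not state a strand. Ppib, cyclophilin B, a prolyl isomerase of collagen, averaged 880.0 ± 6.40 FPKM in CTSD-AGEs, 767 ± 18.7 in vector-AGEs and 873 ± 44.2 in vector-BSA cells (SD, n = 3 each). It fell with AGEs (-0.19, adjusted p = 0.0149) and rose with CTSD (0.20, adjusted p = 0.00488), and the first call ended without vector-AGEs replicate 1, vector-BSA replicate 1 or vector-BSA replicate 2 (adjusted p = 0.0557 to 0.0593), and under median-of-ratios scaling (0.0867).

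P4hb, the main protein disulfide isomerase and a subunit of the collagen prolyl 4-hydroxylase, had 151, 139 and 151 FPKM in CTSD-AGEs cells, 131, 136 and 123 in vector-AGEs cells and 132, 138 and 125 in vector-BSA cells. The vector-AGEs and vector-BSA libraries overlapped, and the CTSD-AGEs libraries lay above the vector-AGEs libraries. It rose with CTSD (0.18, SE 0.06, adjusted p = 0.0382), a call that ended without CTSD-AGEs replicate 1 or 3, vector-AGEs replicate 1 or 3, or vector-BSA replicate 1 (adjusted p = 0.0531 to 0.118), and under median-of-ratios scaling (0.164). Pdia4, an isomerase with 3 catalytic domains, had 56.2, 53.8 and 49.4 FPKM in CTSD-AGEs cells, 58.4, 52.5 and 50.2 in vector-AGEs cells and 65.3, 65.6 and 62.1 in vector-BSA cells. Both groups with AGEs lay below the vector-BSA libraries, with -0.26 (SE 0.07, adjusted p = 0.0358) for vector-AGEs and -0.27 (SE 0.07, adjusted p = 0.0153) for CTSD-AGEs cells, and the difference between them was -0.01 (95% interval -0.17 to 0.14). The first call ended without CTSD-AGEs replicate 2, vector-AGEs replicate 2 or 3, or any vector-BSA replicate (adjusted p = 0.0528 to 0.0994), and the other without CTSD-AGEs replicate 3 (0.0594).

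Pdia6, a further isomerase, which also binds IRE1, had 36.6, 30.5 and 30.4 FPKM in CTSD-AGEs cells, 28.4, 28.7 and 23.7 in vector-AGEs cells and 36.9, 34.3 and 31.1 in vector-BSA cells. The vector-AGEs libraries lay below the other 6, which overlapped. The difference with AGEs was -0.33 (SE 0.10, adjusted p = 0.0568). With the replicate number as a block over all libraries, CTSD-AGEs included, the adjusted p was 0.0235. Dnajc10, a reductase with a J domain, and Ero1b, an oxidase that recharges the isomerases, were lower with AGEs (-0.31, adjusted p = 0.0223, and -0.39, adjusted p = 0.0293). Both also stayed lower in CTSD-AGEs than in vector-BSA cells (-0.29, adjusted p = 0.0151, and -0.34, adjusted p = 0.0265). The differences with CTSD were 0.02 (95% interval -0.15 to 0.18) and 0.05 (-0.18 to 0.27). With AGEs, the Dnajc10 call ended without vector-AGEs replicate 1 or 2 or vector-BSA replicate 2 or 3 (adjusted p = 0.0649 to 0.0835), and the Ero1b call without vector-AGEs replicate 1 or 2 or any vector-BSA replicate (0.0543 to 0.104). Against vector-BSA cells, the CTSD-AGEs call of Dnajc10 ended without CTSD-AGEs replicate 3 or vector-BSA replicate 2 (0.0568 and 0.0567), and that of Ero1b without any CTSD-AGEs replicate or vector-BSA replicate 1 or 2 (0.0571 to 0.0904). Ero1b is uncertain, since the overlapping row Gpr137b holds 1518 fragments against its 1488.

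Creld2, an isomerase-like protein induced by ER stress, had 1.14, 2.08 and 0.976 FPKM in CTSD-AGEs cells, 1.26, 0.602 and 0.837 in vector-AGEs cells and 0.985, 0.154 and 0.663 in vector-BSA cells, from 58 fragments in all. The groups overlapped and no difference was detectable at this depth. Erp44, which returns the ERO1 oxidases to the ER, and Ero1a were not called in any comparison, with ranges of 202 to 243 FPKM and 8.61 to 12.5 FPKM over the 9 libraries.

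In the degradation group, of 9 tested, 3 fell and 1 rose with AGEs (median -0.13), and 3 rose and 1 fell with CTSD (median 0.18). All tested genes had 8.92% lower and 6.05% higher with AGEs, and 18.6% higher and 12.0% lower with CTSD. Herpud1, a membrane scaffold of the ubiquitin ligase complex, had 32.9, 41.2 and 35.6 FPKM in CTSD-AGEs cells, 25.4, 27.7 and 21.7 in vector-AGEs cells and 37.4, 35.7 and 38.1 in vector-BSA cells. All 3 vector-AGEs libraries lay below the other 6, with differences of -0.56 (SE 0.10, adjusted p = 0.00574) with AGEs and 0.53 (SE 0.10, adjusted p = 0.00292) with CTSD. Sel1l, the partner that steadies the ligase Hrd1, had 26.1, 29.1 and 30.8 FPKM in CTSD-AGEs cells, 23.7, 21.6 and 24.6 in vector-AGEs cells and 31.4, 33.6 and 30.7 in vector-BSA cells. The vector-AGEs libraries lay below all others, and the vector-BSA and CTSD-AGEs groups overlapped slightly. It fell with AGEs (-0.44, SE 0.08, adjusted p = 0.00677) and rose with CTSD (0.29, SE 0.08, adjusted p = 0.0245), and the CTSD call ended without CTSD-AGEs replicate 2 or 3 or vector-AGEs replicate 1 or 2 (adjusted p = 0.0511 to 0.0916), and under median-of-ratios scaling (0.0638) and quantile normalization (0.0565).

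Derl2, a derlin of the retrotranslocation channel, averaged 115 ± 9.91 FPKM in CTSD-AGEs, 92.7 ± 2.59 in vector-AGEs and 111 ± 5.26 in vector-BSA cells (SD, n = 3 each). It fell with AGEs (-0.25, adjusted p = 0.0299) and rose with CTSD (0.31, adjusted p = 0.00528), and the AGEs call ended without vector-AGEs replicate 1 or 2 or vector-BSA replicate 1 or 2 (adjusted p = 0.0584 to 0.0964), and under median-of-ratios scaling (0.0773). Vcp, the ATPase that pulls substrates into the cytosol, moved the other way. It averaged 496 ± 13.1 FPKM in CTSD-AGEs, 577 ± 16.8 in vector-AGEs and 496 ± 12.4 in vector-BSA cells (SD, n = 3 each), with a rise with AGEs (0.22, SE 0.04, adjusted p = 0.00502) and a fall with CTSD (-0.22, SE 0.04, adjusted p = 0.00182). Under quantile normalization the adjusted p of the rise was 0.0836.

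The remaining degradation genes were not called in any comparison. Syvn1 (Hrd1 itself), Edem1, which trims mannose from glycans, Os9, which reads the trimmed glycans, Selenos and Derl1, partners in retrotranslocation, had log2 differences with AGEs between -0.26 and 0.26. Derl3 was listed at 0 in every library, and it lies on the locus of Smarcb1, whose row holds 8218 fragments.

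**Figure D4:**
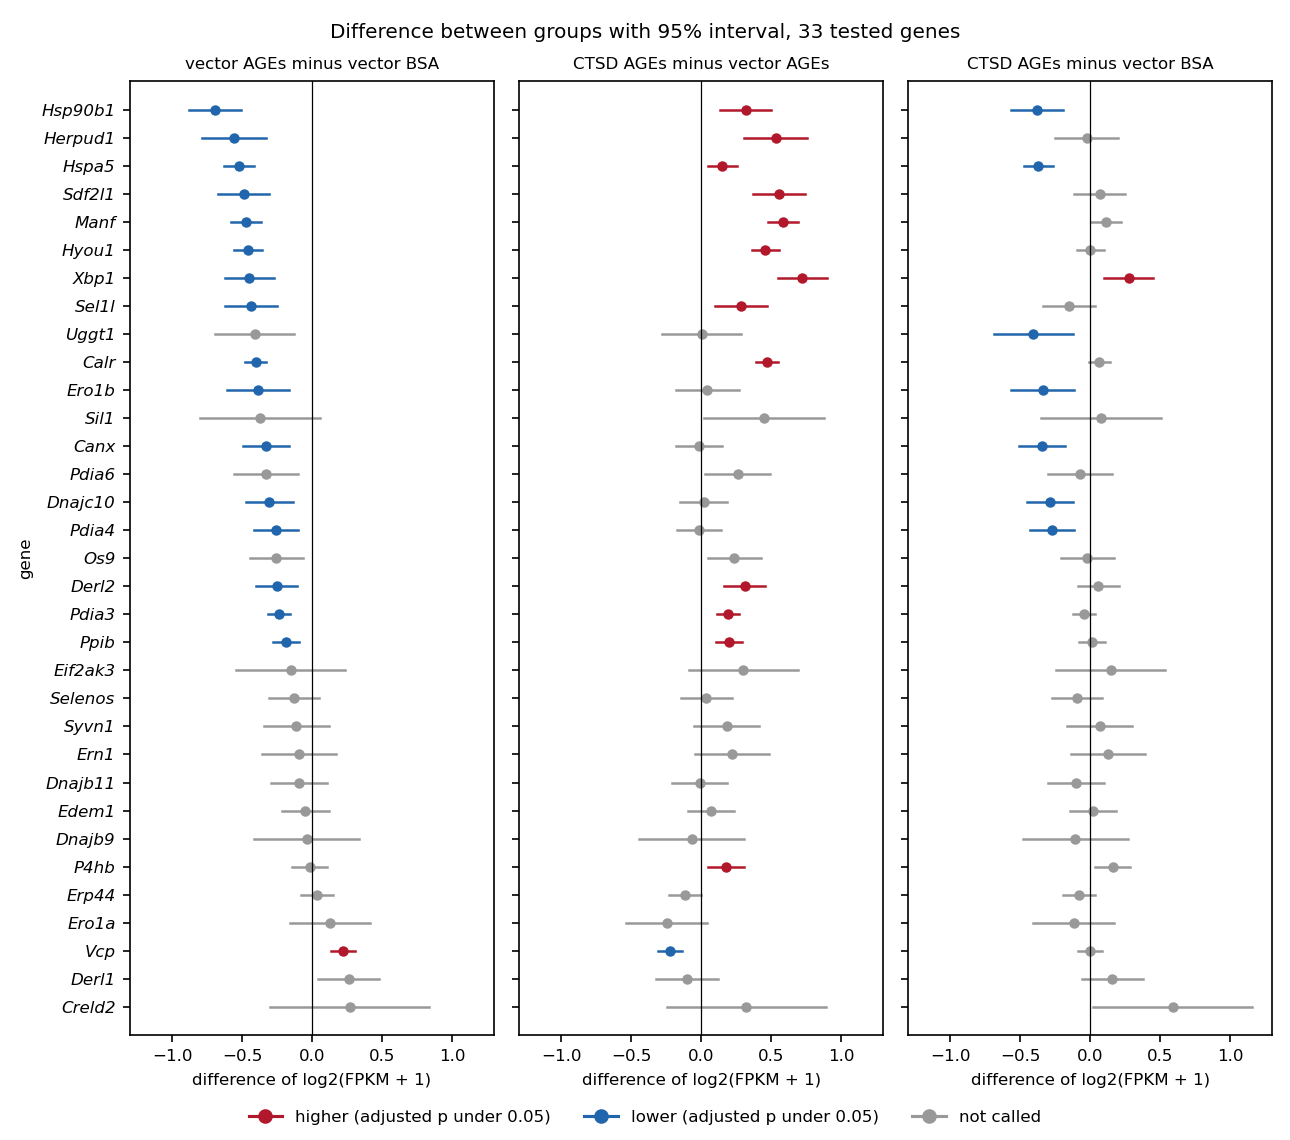
Difference of log2(FPKM + 1) with its 95% interval for the 33 tested members in 3 panels, vector-AGEs minus vector-BSA, CTSD-AGEs minus vector-AGEs, and CTSD-AGEs minus vector-BSA cells. Red marks members called higher, blue those called lower and grey those not called, and Xbp1, at 0.72, lies farthest to the right among called members.

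Of the sensors and their transcription factor, 3 were tested and Xbp1 alone was called. Xbp1 (ENSRNOG00000010298, chromosome 14, 85753760 to 85758145), whose mRNA IRE1 splices, had 81.9, 89.2 and 84.1 FPKM in CTSD-AGEs cells, 53.2, 52.0 and 48.3 in vector-AGEs cells and 79.6, 66.7 and 65.0 in vector-BSA cells. The vector-AGEs libraries lay below all others and the CTSD-AGEs libraries above all others. It fell with AGEs (-0.45, SE 0.08, adjusted p = 0.00491) and rose with CTSD (0.72, SE 0.08, adjusted p = 0.000110), 1.66 times the vector-AGEs mean. It was also higher in CTSD-AGEs than in vector-BSA cells (0.27, SE 0.08, adjusted p = 0.0234), a call that ended without CTSD-AGEs replicate 2 or 3 or vector-BSA replicate 2 or 3 (adjusted p = 0.0539 to 0.0847). FPKM over the gene does not separate spliced from unspliced mRNA, so these values are not a measure of splicing.

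Ern1 (IRE1) had 7.57, 7.87 and 6.74 FPKM in CTSD-AGEs cells, 5.77, 6.81 and 6.01 in vector-AGEs cells and 7.41, 6.36 and 6.28 in vector-BSA cells. Eif2ak3 (PERK) had 3.41, 3.73 and 4.13 FPKM in CTSD-AGEs cells, 2.27, 2.79 and 3.63 in vector-AGEs cells and 2.82, 4.13 and 3.02 in vector-BSA cells. The groups of both genes overlapped. With AGEs, the differences were -0.09 for Ern1 (95% interval -0.36 to 0.17) and -0.15 for Eif2ak3 (-0.54 to 0.24), and with CTSD they were 0.22 (-0.04 to 0.49) and 0.30 (-0.09 to 0.69). Atf6 had 0.735, 1.24 and 0.559 FPKM in CTSD-AGEs cells, 0.452, 0.474 and 0.560 in vector-AGEs cells and 0.726, 0.748 and 0.998 in vector-BSA cells, from 150 fragments. Its vector-AGEs libraries lay below the vector-BSA libraries and overlapped the CTSD-AGEs libraries, all at low values, and it was not tested.

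The comparison of CTSD-AGEs with vector-BSA cells shares its libraries with both others, and its values are given beside theirs. Of the 7 members called lower than in vector-BSA cells, Hsp90b1 differed by -0.38, Hspa5 by -0.37, Canx by -0.35 and Uggt1 by -0.41, and the other 3 were Ero1b, Dnajc10 and Pdia4. For these 7 the difference with CTSD against the vector lay between -0.02 (Canx) and 0.32 (Hsp90b1). Xbp1 was called higher than in vector-BSA cells. Among members not called there, the difference and its 95% interval were 0.00 (-0.10 to 0.10) for Hyou1, 0.07 (-0.01 to 0.14) for Calr, 0.11 (0.00 to 0.22) for Manf and 0.07 (-0.12 to 0.25) for Sdf2l1. In the degradation group they were -0.03 (-0.25 to 0.20) for Herpud1, 0.06 (-0.09 to 0.21) for Derl2, -0.15 (-0.34 to 0.03) for Sel1l and 0.00 (-0.09 to 0.09) for Vcp. Among the disulfide and prolyl enzymes they were 0.01 (-0.08 to 0.11) for Ppib, -0.04 (-0.12 to 0.04) for Pdia3 and 0.16 (0.03 to 0.29) for P4hb, whose adjusted p was 0.0542. Without CTSD-AGEs replicate 3, 3 members instead of 7 were called lower than in vector-BSA cells and 0 instead of 1 higher. The counts were 4 lower without vector-BSA replicate 2, 0 higher without vector-BSA replicate 3, and 2 higher without vector-AGEs replicate 3. Over all tested genes, calls in these 4 settings numbered 2139, 2181, 2201 and 3090 in the same order, against 2782 with all libraries.

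Of 85 symbols of other pathway genes, 81 had a row and 69 were tested. With AGEs, 4 rose (5.80%) and 9 fell (13.0%), near the 6.05% and 8.92% of all genes, with a median of -0.10. With CTSD, 22 rose (31.9%) and 10 fell (14.5%), against 18.6% and 12.0% of all genes, with a median of 0.09. CTSD-AGEs cells had 8 higher (11.6%) and 15 lower (21.7%) than vector-BSA cells, near the 16.3% of all genes in either direction. In the ATF6 and CREB3 list, 3 of 4 fell with AGEs and 3 of 4 rose with CTSD. In the PERK and ATF4 list, 1 of 6 fell with AGEs, and 1 rose and 1 fell with CTSD. In the other folding genes, 2 of 32 rose and 3 fell with AGEs, and 12 rose and 3 fell with CTSD. In the other degradation genes, 2 of 20 rose and 2 fell with AGEs, and 5 rose and 6 fell with CTSD. In the survival and death list, limma called 0 of 7 with AGEs (1 at an unadjusted p under 0.05), and 1 rose with CTSD.

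Atf4, the transcription factor translated when PERK is active, had 356, 345 and 362 FPKM in CTSD-AGEs cells, 269, 274 and 265 in vector-AGEs cells and 442, 423 and 438 in vector-BSA cells. The groups did not overlap, and vector-BSA cells were highest, with differences of -0.69 (adjusted p = 2.75e-05) with AGEs, 0.40 (adjusted p = 4.82e-05) with CTSD and -0.29 (adjusted p = 0.000380) for CTSD-AGEs against vector-BSA cells. Ddit3 (CHOP), a target of ATF4, averaged 4.74 ± 0.692 FPKM in CTSD-AGEs, 4.11 ± 1.34 in vector-AGEs and 5.16 ± 1.41 in vector-BSA cells (SD, n = 3 each) and was not called with AGEs or CTSD (adjusted p = 0.434 and 0.560). Atf3 was listed at 0 and was not tested.

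Creb3l1, a transcription factor held in the ER membrane, had 58.4, 56.6 and 56.7 FPKM in CTSD-AGEs cells, 27.5, 27.6 and 29.9 in vector-AGEs cells and 41.6, 42.2 and 42.7 in vector-BSA cells. Its vector-AGEs libraries were lowest and its CTSD-AGEs libraries highest, with differences of -0.56 (SE 0.06, adjusted p = 0.000295) with AGEs and 0.99 (SE 0.06, adjusted p = 3.58e-06) with CTSD. Eif2s1, the translation factor subunit that PERK phosphorylates, averaged 130.2 ± 3.19 FPKM in CTSD-AGEs, 229 ± 24.0 in vector-AGEs and 215 ± 10.8 in vector-BSA cells (SD, n = 3 each) and fell with CTSD (-0.80, adjusted p = 3.62e-05). Tmx1, a thioredoxin-like membrane protein, rose with AGEs (0.53, adjusted p = 0.0269) and fell with CTSD (-1.05, adjusted p = 0.000296). Pdia5, an isomerase, and Ubqln2, which carries ubiquitinated proteins to the proteasome, fell with AGEs (-0.44, adjusted p = 0.00234, and -0.58, adjusted p = 0.00152) and rose with CTSD (0.39, adjusted p = 0.00148, and 0.31, adjusted p = 0.0152). Sdf2, a relative of Sdf2l1, and Selenom, an ER selenoprotein, rose with CTSD (0.77, adjusted p = 0.0198, and 0.75, adjusted p = 0.00169).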

How the data were processed

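The data were FPKM values per gene from poly-T selected RNA of 9 libraries, sequenced as 150-base read pairs, per the labels' protocols. The authors deposited FPKM in 1 table for all libraries, and they are per kilobase of gene model and scaled to the assigned fragments of a library, as the values show. The submitters' processing notes name the mouse build mm10 while gene identifiers are those of rat, so positions are given as deposited without a build. No aligner or counting strand is given in the sources used here. FPKM times gene length gave whole fragments (within 0.1) for at least 99.1% of values under 200 fragments, and so the depth. A value of 0 is a listed value and does not show that a gene is silent.

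A gene was tested where 3 or more of the 9 libraries had 1 FPKM or more, taken as log2(FPKM + 1) with limma 3.58.1 in R 4.3.3, with 1 mean per group, an intensity trend and two-sided moderated tests. The pseudocount of 1 makes differences of genes near 1 FPKM smaller than their ratios. Calls are at a Benjamini-Hochberg adjusted p under 0.05 over all 8532 genes of a comparison. The labels do not say whether replicates were separate cultures, so the spread behind the p-values may be technical. Residuals of same-numbered libraries in the vector-AGEs and vector-BSA groups correlated at 0.135, 0.142 and 0.152, so these numbers were taken to pair the samples, from the data and not from the labels. The main fit, which gave the counts, SEs and adjusted p-values above, did not use this pairing. The paired fit is given only where the replicate block is named. Its block covers all 3 groups, so it also pairs the CTSD-AGEs libraries by number.

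The members and lists were chosen with earlier results of these data known. Per-library values are given for the sensors, a fixed set of chaperones and isomerases, and other members called with a log2 difference of at least 0.4 with AGEs or CTSD. Of the other pathway genes, Atf4, Ddit3, Atf3 and the 5 called genes with the largest difference in either comparison are named. The marker lists cover smooth muscle, endothelial, macrophage, fibroblast, epithelial or mesothelial, and Schwann or neural cells. Alternatives were quantile normalization, median-of-ratios scaling, a filter at a mean of 5 FPKM, no filter, a pseudocount of 0.1, fits of 2 groups alone, the replicate block, removal of a trend with gene length, voom on the recovered fragments, and each library left out in turn. Promoters came from RefSeq (GRCr8). The fit was tested on simulated data. Tables and figures used python 3.11.15, numpy 2.4.6, pandas 2.3.3, scipy 1.17.1 and matplotlib 3.10.9.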

Additional observations from a re-analysis of the deposited data

How the results depend on the processing

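Of 39 called member differences, 24 were called in each of the 18 alternatives run (10 of 17 with AGEs, 11 of 14 with CTSD, 3 of 8 for CTSD-AGEs against vector-BSA cells), 15 lost the call in at least 1, and 0 changed sign. A further 8 were called only in an alternative. Of 52 differences never called, 22 changed sign in at least 1 alternative, at values from -0.13 to 0.08. With AGEs, quantile normalization left 0 members called higher. With CTSD, median-of-ratios scaling gave 2 lower. For CTSD-AGEs against vector-BSA cells, the filter at a mean of 5 FPKM, quantile normalization, removal of the length trend and voom each gave 2 higher. Leaving out 1 library gave 10 to 17 members lower and 1 to 1 higher with AGEs, 10 to 13 higher and 1 to 1 lower with CTSD, and 3 to 7 lower and 0 to 2 higher for CTSD-AGEs against vector-BSA cells. Over all genes it gave 761 to 1607 calls with AGEs (1277 with all libraries), 2097 to 2524 with CTSD (2617) and 2107 to 3090 (2782). The AGEs count was 761, 841 and 1607 without vector-AGEs replicates 1, 2 and 3, and 807, 850 and 807 without vector-BSA replicates 1, 2 and 3. Under quantile normalization 51.7% of all calls with AGEs and 52.4% of those with CTSD were higher. Beside the calls named above, Pdia4 with AGEs was lost with no filter, median-of-ratios scaling, quantile normalization and 2 groups alone (adjusted p = 0.0501 to 0.0923), Ero1b with AGEs with the last 2 (0.0751 and 0.0654), and Uggt1 against vector-BSA cells with no filter, quantile normalization and the length trend removed (0.0517 to 0.0783). With no filter, Hspa5 and P4hb lost the CTSD call (0.0618 and 0.0514). The causes were not tested. With the replicate block, the paired fit, 17 members were lower with AGEs and 1 higher, and Pdia6 was the call gained. In the other comparisons libraries shared only a number (residual correlations of 0.080, -0.035 and 0.074 with CTSD, and 0.060, 0.005 and 0.003). There the replicate block gave 12 higher and 1 lower with CTSD, Hspa5 and P4hb having an adjusted p of 0.0546 and 0.0529 and Pdia6 0.0314, and 6 lower and 1 higher against vector-BSA cells, Uggt1 having 0.0548. The planned quasi-likelihood count test on recovered fragments was not run, since the deposited unit is FPKM. Depth limited Creld2, Dnajc3 and Atf6, with 58, 10 and 150 fragments in all.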
